A study of Mus musculus with 48 samples.

Results

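Glutamate receptors and the scaffold proteins that hold them at the synapse were examined as 1 group of genes. Members were all genes whose platform symbol begins with Gria, Grik, Grin, Grm, Dlg, Dlgap, Homer or Shank followed by a digit. They numbered 30 genes, read by 45 probes, out of 16593 named genes and 25697 probes on the array. Of these 30 genes, 23 had 1 probe and 7 had more, and the brightest probe of each gene was used.

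Transcript levels were measured on Illumina MouseRef-8 bead arrays in striatum and cortex of 24 FvB/NJ mice, 1 array per region and mouse, 48 arrays in all. BACHD-ΔN17 mice are transgenic for mutant human huntingtin, the cause of Huntington's disease, carried by a bacterial artificial chromosome and lacking the N17 segment at the start of the protein. They were set against wild-type mice of the same strain at 2, 7 and 11 months of age, with 4 mice (2 males and 2 females) in each of the 12 groups of region, genotype and age. The founder line was not given in the sources used here, and the tissue was whole dissected region, so fewer cells of a type and less RNA per cell cannot be told apart in any value below.

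Glutamate released from a nerve terminal opens AMPA, kainate and NMDA receptor channels on the facing spine and engages metabotropic receptors, which signal through G proteins. Behind the membrane, Dlg scaffolds bind the receptor tails, Dlgap proteins link Dlg to Shank, and Shank binds Homer, which in turn reaches group I metabotropic receptors. In striatum these proteins serve the synapses that cortical and thalamic axons make on spiny projection neurons.

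Levels are given on a normalized log2 scale on which 1 unit is a doubling of signal, and a level of 5.62 to 6.17, depending on the array, was the detection floor. Of the 30 members, 22 were detected on enough arrays to be tested in striatum and 21 in cortex. Dlgap5, Grin2a, Grin2b, Grin2d, Grin3b, Grm3, Grm6 and Shank2 were tested in neither region. Each of their probes was detected on at most 6 of the 48 arrays, so these data hold no level for the main NMDA receptor subunits of the forebrain.

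The arrays matched their labels of region and sex. Of 18 tested marker genes of striatal projection neurons, 18 were higher in striatum than in cortex of wild-type mice, and of 11 markers of cortical excitatory neurons 10 were lower. Xist read 8.97 to 10.3 on the 24 arrays of females and 5.02 to 6.57 on the 24 arrays of males. The mouse Htt probe differed between BACHD-ΔN17 and wild-type by -0.10 to 0.21 on the log2 scale over the 6 comparisons and passed in none. This probe gave no check of the genotype labels. The 8 arrays with internal sample numbers 1 to 8 were dim. Their 95th percentile of intensity was 2556 to 3082, against 3746 to 5806 on the other arrays. They held a BACHD-ΔN17 striatum at 2 and at 11 months, a wild-type striatum at 2 and at 7 months, and 2 cortices of each genotype at 11 months. Numbers 33 to 48 held no BACHD-ΔN17 striatum of 7 or 11 months.

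At 7 and 11 months, 8 and 9 members were lower in BACHD-ΔN17 striatum than in wild-type striatum and 0 were higher. A member was called where its limma p, adjusted by Benjamini-Hochberg over all features tested, was under 0.05. At 7 months 12.6% of all 11225 features were called, 7.29% lower and 5.28% higher. At 11 months 18.9% were called, 10.1% lower and 8.73% higher. Under scale normalization, which moved the median of all features there to -0.13, 17.2% of the calls at 11 months were higher, against 46.2% of the calls with the main normalization. At 2 months 0 members were called by limma, 2 had an unadjusted p under 0.05, and 0.00891% of all features were called. The median log2 difference of the 22 members was -0.03, -0.30 and -0.31 at 2, 7 and 11 months, beside 0.00, 0.01 and 0.02 over all features. Leaving out wild-type mouse 2 or BACHD-ΔN17 mouse 1 or 2 of that age brought the 7-month count to 5.

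In cortex members were called at 11 months and at no other age. There 0 members were called at 2 months, where 0% of all features were called and 0 members had an unadjusted p under 0.05. At 7 months 0 members were called by limma, 3 had an unadjusted p under 0.05, and 1.77% of all features were called, 1.28% lower and 0.498% higher. At 11 months 7 members were lower and 0 higher in BACHD-ΔN17 cortex, where 16.1% of all features were called, 9.16% lower and 6.97% higher. The cortical medians of the 21 members were -0.06, -0.12 and -0.29 at 2, 7 and 11 months, beside -0.0046, 0.01 and 0.02 over all features. Scale normalization left 0 members called in cortex at 11 months. With arrays numbered 1 to 32 alone, 8 members were lower in striatum at 11 months, 4 in striatum at 7 months and 3 in cortex at 11 months. With arrays 33 to 48 alone, which held 1 BACHD-ΔN17 cortex at 11 months, 2 members were lower in cortex at 11 months. Without the 8 dim arrays, 11 members were lower in striatum and 1 in cortex at 11 months. The share of all features called in these subsets of arrays is not given here. Their counts therefore cannot be read as particular to the members.

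**Figure D1:**
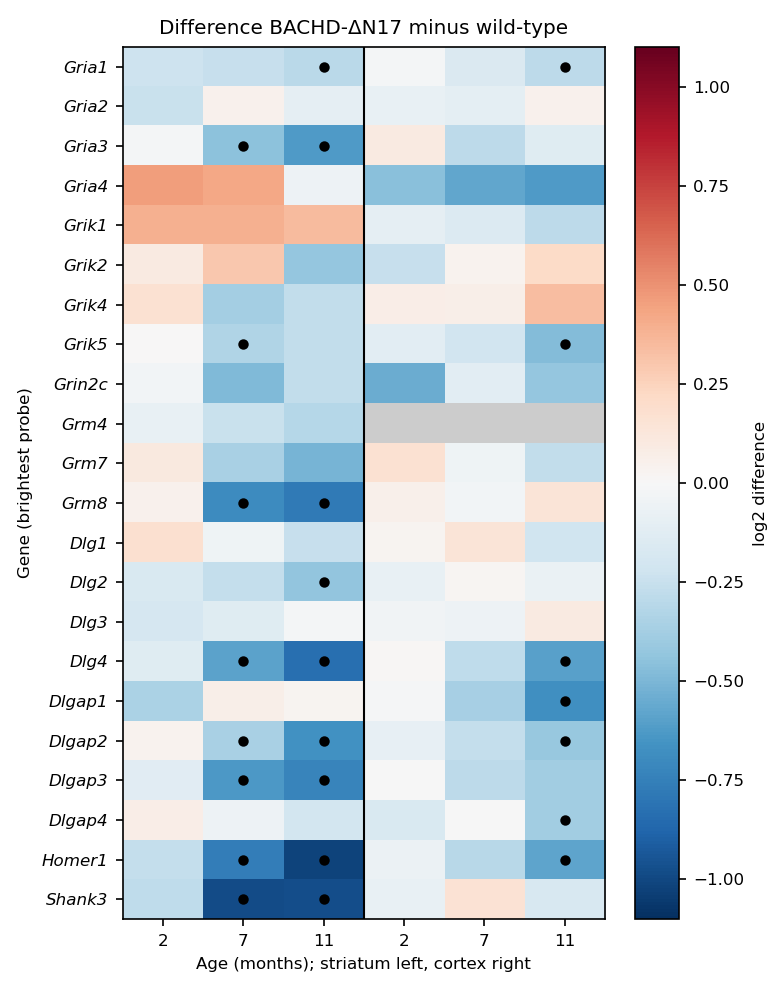
Log2 difference BACHD-ΔN17 minus wild-type for each tested member (rows) at 2, 7 and 11 months in striatum (left) and cortex (right). Black dots mark limma adjusted p under 0.05 and grey marks Grm4, not tested in cortex. All 8 dots in striatum at 7 months, all 9 at 11 months and all 7 in cortex at 11 months lie on negative differences.

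AMPA receptors, the channels that carry most fast excitatory transmission, have 4 subunit genes, Gria1 to Gria4, and all 4 were tested. Gria1 and Gria3 fell in striatum, and Gria2 and Gria4 were called in no genotype comparison. Gria3 (chrX:41400819-41678601 in GRCm38.p6) read 8.45, 8.70, 8.92 and 8.82 in BACHD-ΔN17 striatum at 11 months, against 9.48, 9.42, 9.32 and 9.17 in wild-type striatum. Every BACHD-ΔN17 value lay below every wild-type value. The log2 difference was -0.62 (SE 0.14, limma adjusted p = 0.00226), and at 7 months it was -0.45 (adjusted p = 0.0365). The 7-month call was lost when wild-type mouse 2 or 4 or BACHD-ΔN17 mouse 1, 2 or 4 was left out (adjusted p 0.0769 to 0.132). The same probe differed by -0.13 in cortex at 11 months (adjusted p = 0.605), with values of 9.23 to 10.15 in BACHD-ΔN17 and 9.66 to 9.88 in wild-type mice.

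Gria3 has 2 further probes on the same transcript record, and these disagreed between regions. At 11 months the second probe differed by -0.80 (adjusted p = 0.0176) in striatum and -0.34 (adjusted p = 0.447) in cortex. The third differed by -0.24 (adjusted p = 0.447) in striatum and -0.98 (adjusted p = 0.000447) in cortex. Which parts of the transcript these probes read was not analysed here.

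Gria1 (chr11:57011571-57330244) read 11.91, 11.57, 11.86 and 12.03 in BACHD-ΔN17 striatum at 11 months, against 12.11, 12.15, 12.13 and 12.17 in wild-type striatum. The 4 wild-type values were close together and all BACHD-ΔN17 values lay below them. The difference was -0.30 (SE 0.10, adjusted p = 0.0434) in striatum and -0.29 (SE 0.10, adjusted p = 0.0427) in cortex, where the groups overlapped. Without BACHD-ΔN17 mouse 2 the striatal adjusted p was 0.202, and leaving out any of the other 7 mice except BACHD-ΔN17 mouse 4 gave 0.0507 to 0.09. The cortical call was lost without wild-type mouse 1 or 4 or BACHD-ΔN17 mouse 2, 3 or 4 (adjusted p 0.0813 to 0.122). The other 2 Gria1 probes were lower in striatum at both later ages, by -0.40 and -0.30 at 7 months (adjusted p = 0.0107 and 0.0398) and by -0.42 and -0.35 at 11 months (adjusted p = 0.00504 and 0.0102). In cortex at 11 months the first of these probes passed (-0.43, limma adjusted p = 0.0186) and the second did not (-0.20, adjusted p = 0.182).

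Gria2, whose edited subunit keeps AMPA channels nearly impermeable to calcium, differed by -0.10 (SE 0.12, adjusted p = 0.626) in striatum and 0.05 (SE 0.09, adjusted p = 0.761) in cortex at 11 months. It read 13.29 to 13.53 in BACHD-ΔN17 striatum and 13.38 to 13.63 in wild-type striatum. Gria4, near the floor in striatum, differed by 0.46, 0.42 and -0.06 in striatum and by -0.46, -0.57 and -0.62 in cortex at 2, 7 and 11 months. None of these 6 Gria4 differences passed, and their SE was 0.25 in striatum and 0.35 in cortex.

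Of the kainate receptor genes, which encode a slower family of glutamate channels, Grik5 alone was called between genotypes. Grik5 (chr7:25009849-25075694), a high-affinity subunit that assembles with the other kainate subunits, read 9.94, 9.92, 9.71 and 10.14 in BACHD-ΔN17 striatum at 7 months, against 10.27, 10.20, 10.37 and 10.20 in wild-type striatum. All BACHD-ΔN17 values lay below the wild-type values, with a difference of -0.33 (SE 0.10, adjusted p = 0.0307). This call was lost without wild-type mouse 2 or 3 or BACHD-ΔN17 mouse 1, 2 or 3 (adjusted p 0.052 to 0.133). At 11 months the striatal difference was -0.27 (adjusted p = 0.0624). The cortical values of Grik5 at 11 months were 9.35, 9.27, 9.73 and 9.35 in BACHD-ΔN17, against 9.75, 9.95, 9.96 and 9.96 in wild-type mice, a difference of -0.48 (SE 0.10, adjusted p = 0.00132). The groups did not overlap, although the highest BACHD-ΔN17 value lay next to the lowest wild-type value.

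Grik1 differed by 0.39, 0.39 and 0.35 in striatum and by -0.10, -0.15 and -0.29 in cortex at 2, 7 and 11 months. None of the 6 passed, and the cortical difference at 11 months came closest (adjusted p = 0.0841). Grik2, detected on 14 of 24 striatal and 10 of 24 cortical arrays, and Grik4, detected on 22 in each region, differed by -0.42 to 0.34 without passing. The single NMDA receptor gene tested, Grin2c, differed by -0.27 (SE 0.28) in striatum and -0.42 (SE 0.28) in cortex at 11 months, and neither difference passed.

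Among the metabotropic receptors, Grm8 fell in striatum and not in cortex. Grm8 (chr6:27275121-28135146), a group III receptor that sits mainly on nerve terminals and lowers transmitter release, read 8.01, 7.43, 7.95 and 7.83 in BACHD-ΔN17 striatum at 11 months, against 8.72, 8.46, 8.62 and 8.53 in wild-type striatum. The groups did not overlap, and the level was 1.71-fold lower (log2 difference -0.78, SE 0.17, adjusted p = 0.00143). On the authors' log2 values, which were not background-corrected, the difference was -0.47. At 7 months the difference was -0.69 (adjusted p = 0.00715), where wild-type mouse 3 read 8.31 beside 9.04, 9.15 and 9.17 in the other wild-type mice. Within arrays 1 to 32 the 7-month difference was -0.44 (adjusted p = 0.203).

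Cortical Grm8 at 11 months read 7.93 to 8.28 in BACHD-ΔN17 and 7.87 to 8.13 in wild-type mice. Taken within each mouse, its 11-month genotype difference in striatum exceeded that in cortex by -0.92 (SE 0.21, adjusted p = 0.00639). Its striatal difference changed by -0.83 between 2 and 11 months (SE 0.24, adjusted p = 0.0334). Grm7, the other group III receptor seen in both regions, differed by -0.51 in striatum at 11 months (SE 0.19, adjusted p = 0.061), with values of 7.82 to 8.17 in BACHD-ΔN17 and 8.27 to 8.93 in wild-type mice. Grm4, detected on 15 of 24 striatal arrays, differed by -0.31 (SE 0.32, adjusted p = 0.565), and 1 BACHD-ΔN17 striatum read 7.28 beside 5.12 to 5.53 in the other 3.

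Dlg4 encodes the main membrane-associated scaffold of the excitatory synapse, which anchors NMDA receptors and, through auxiliary subunits, AMPA receptors. In BACHD-ΔN17 striatum Dlg4 (chr11:70017203-70045535) read 10.33, 10.53, 10.60 and 10.39 at 11 months, against 11.18, 11.31, 11.33 and 11.36 in wild-type striatum. The lowest wild-type mouse stood well above the highest BACHD-ΔN17 mouse, and the level was 1.78-fold lower (log2 difference -0.83, SE 0.10, adjusted p = 8.95e-07). At 7 months it read 10.84, 10.75, 10.51 and 10.64 in BACHD-ΔN17 and 11.29, 11.17, 11.56 and 11.05 in wild-type striatum (difference -0.59, adjusted p = 0.000236). At 2 months the groups overlapped, with a difference of -0.13 (adjusted p = 0.99). The change in the striatal difference between 2 and 11 months was -0.70 (SE 0.14, adjusted p = 0.00227).

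In cortex Dlg4 read 10.52, 11.30, 10.74 and 10.59 in BACHD-ΔN17 at 11 months, against 11.27, 11.32, 11.49 and 11.46 in wild-type mice. BACHD-ΔN17 mouse 2 lay among the wild-type mice and the other 3 below them. The difference was -0.60 (SE 0.16, adjusted p = 0.0114), and without BACHD-ΔN17 mouse 1 its adjusted p was 0.0549. The test of striatum against cortex did not pass for Dlg4 at 11 months (-0.23, SE 0.16, adjusted p = 0.475).

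Dlg2 (chr7:90476188-92449246), a close relative of Dlg4, read 11.74, 11.72, 11.78 and 11.86 in BACHD-ΔN17 striatum at 11 months, against 12.43, 12.04, 12.01 and 12.37 in wild-type striatum. The groups did not overlap (difference -0.44, SE 0.09, adjusted p = 0.000911, and -0.70 under scale normalization), while in cortex the difference was -0.07 (adjusted p = 0.576). The gap between the regions was -0.37 (SE 0.11, adjusted p = 0.0492). Dlg1, close to the floor, and Dlg3, at 11.5 to 12.4 in both regions at 11 months, were called in no genotype comparison.

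Dlgap proteins bind the guanylate kinase domain of Dlg scaffolds and pass the link on to Shank. Dlgap2 and Dlgap3 were called lower in striatum, and Dlgap1, Dlgap2 and Dlgap4 in cortex at 11 months. With the brightest probes, the test of striatum against cortex was called for 0 of 4 Dlgap genes at 7 and at 11 months. A second Dlgap2 probe was called in that test at 11 months (-0.60, limma adjusted p = 0.0134). Dlgap3 (chr4:127168305-127237022), the family member whose loss in mice disturbs corticostriatal synapses and causes overgrooming, read 9.80, 9.36, 9.55 and 9.58 in BACHD-ΔN17 striatum at 11 months, against 10.42, 10.31, 10.22 and 10.23 in wild-type striatum. The groups did not overlap, and the level was 1.65-fold lower (difference -0.72, SE 0.16, adjusted p = 0.00155). At 7 months the difference was -0.63 (adjusted p = 0.00869), with 1 wild-type mouse at 9.90 inside the BACHD-ΔN17 range of 9.50 to 9.93. The cortical difference at 11 months was -0.38 (adjusted p = 0.0678).

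Dlgap2 (chr8:14095776-14853426) read 10.48, 10.89, 10.76 and 10.62 in BACHD-ΔN17 striatum at 11 months, against 11.51, 11.28, 11.02 and 11.62 in wild-type striatum. All BACHD-ΔN17 values lay below the wild-type values (difference -0.67, SE 0.12, adjusted p = 0.000142), and the difference changed by -0.71 between 2 and 11 months (SE 0.17, adjusted p = 0.00733). At 7 months the difference was -0.35 (adjusted p = 0.0476), and leaving out any 1 mouse of that age other than wild-type mouse 1 ended the call (adjusted p 0.0548 to 0.15). The cortical difference at 11 months was -0.42 (SE 0.10, adjusted p = 0.00612). Of its 2 other probes, 1 was called in striatum at both later ages (-0.44 and -0.85) and 1 at neither (0.01 and -0.57). In cortex at 11 months neither passed (-0.25, adjusted p = 0.172, and -0.26, adjusted p = 0.668).

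Dlgap1 (chr17:69969073-70821413) was near the floor in striatum and well above it in cortex, where it read 7.59, 8.33, 7.60 and 8.17 in BACHD-ΔN17 at 11 months, against 8.44, 8.58, 8.94 and 8.43 in wild-type mice. The difference was -0.68 (SE 0.20, adjusted p = 0.0202) and the groups did not overlap. On the authors' log2 values it was -0.41. The call was lost without wild-type mouse 3 or BACHD-ΔN17 mouse 1 or 3 (adjusted p 0.0726 to 0.0876). Dlgap4 (chr2:156613633-156764363) read 11.65, 11.27, 11.51 and 11.44 in BACHD-ΔN17 cortex at 11 months, against 12.08, 11.77, 11.76 and 11.80 in wild-type cortex, a difference of -0.39 (SE 0.10, adjusted p = 0.00694). The Dlgap4 probe next in brightness passed in neither region at 11 months (-0.02 in cortex, limma adjusted p = 0.939, and -0.30 in striatum, adjusted p = 0.103). A dimmer one was lower in both, by -0.59 in cortex (adjusted p = 0.0425) and -0.45 in striatum (adjusted p = 0.0442).

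Homer1 had the lowest difference in striatum at 11 months among the tested members with the main normalization, and it alone was called lower in the change with age in both regions. Homer1 (chr13:93303757-93405129) encodes an adaptor that ties group I metabotropic receptors to Shank and to calcium stores, and in rodents its gene also gives a short, activity-induced form that uncouples them. It read 11.67, 11.58, 11.80 and 11.69 in BACHD-ΔN17 striatum at 11 months, against 12.85, 12.63, 12.43 and 12.90 in wild-type striatum. The gap between the groups was wider than the range of either, and the level was 2.02-fold lower (log2 difference -1.02, SE 0.11, adjusted p = 1.51e-07). At 7 months it read 11.87, 12.20, 12.12 and 11.71 in BACHD-ΔN17 striatum, against 12.94, 12.66, 12.63 and 12.72 in wild-type striatum. Again the groups did not overlap (difference -0.76, SE 0.11, adjusted p = 2.62e-05). At 2 months it read 12.67, 12.52, 12.63 and 12.33 in BACHD-ΔN17 striatum, against 12.97, 12.66, 12.71 and 12.86 in wild-type striatum, and the difference was -0.26 (adjusted p = 0.99).

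Cortical Homer1 at 11 months read 12.09, 11.92, 12.14 and 11.81 in BACHD-ΔN17 mice, against 12.63, 12.62, 12.26 and 12.78 in wild-type mice. The groups did not overlap (difference -0.58, SE 0.10, adjusted p = 0.000341). Between 2 and 11 months the difference changed by -0.75 in striatum (SE 0.16, adjusted p = 0.00248) and by -0.52 in cortex (SE 0.15, adjusted p = 0.0447). With the brightest probe, the genotype difference within mice was larger in striatum than in cortex. The gap was -0.46 at 7 months (SE 0.12, limma adjusted p = 0.0349) and -0.44 at 11 months (SE 0.12, adjusted p = 0.0222). No other Homer1 probe passed this test at either age.

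Homer1 has 4 probes, annotated to 3 transcript records. The second probe, on the record of the brightest, was lower in BACHD-ΔN17 striatum by -0.49 at 7 and -0.79 at 11 months (adjusted p = 0.00833 and 3.44e-05). The third, on another record, read 7.19, 7.25, 7.81 and 7.23 in BACHD-ΔN17 striatum at 11 months, against 8.89, 8.64, 8.35 and 8.48 in wild-type striatum. It was lower by -0.67 at 7 and -1.22 at 11 months (adjusted p = 0.0251 and 5.04e-05). The second probe differed in cortex at 11 months by -0.67 (adjusted p = 0.000154) and the third by -0.69 (adjusted p = 0.0719). In the test of striatum against cortex the second probe did not pass at 7 or 11 months (-0.28 and -0.12, limma adjusted p = 0.332 and 0.671). The third did not pass there either (-0.53 and -0.54, adjusted p = 0.531 and 0.343). The fourth was detected on 2 of 24 arrays in each region. Whether a probe reads the long or the short form was not analysed here.

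**Figure D2:**
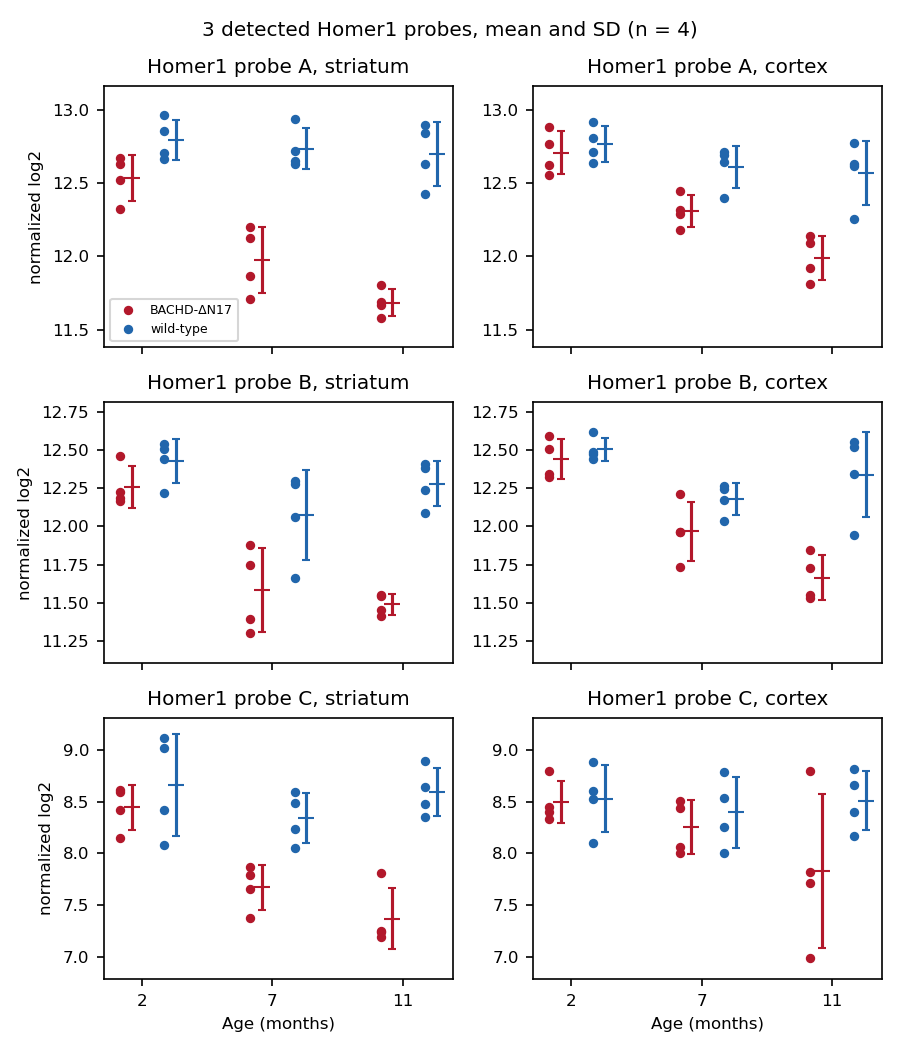
Normalized log2 level of 3 Homer1 probes (A the brightest, B on the same transcript record, C on another) in each mouse at 2, 7 and 11 months, BACHD-ΔN17 in red left of wild-type in blue, striatum left and cortex right. Bars are mean and SD (n = 4); in striatum at 11 months the BACHD-ΔN17 values of each probe lie below all wild-type values.

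Shank3 (chr15:89493013-89560261), a scaffold at the base of the postsynaptic density and the main Shank of striatum, read 5.97, 5.59, 6.09 and 6.36 in BACHD-ΔN17 striatum at 11 months, against 7.21, 7.04, 6.96 and 6.72 in wild-type striatum. The groups did not overlap, and the level was 1.97-fold lower (difference -0.98, SE 0.18, adjusted p = 0.00032). Of the 4 BACHD-ΔN17 arrays 1 was at background, and the values 5.97 and 6.09 lay within the range of the detection floor over arrays (5.62 to 6.17). The size is therefore less certain than for brighter probes. On the authors' log2 values, which were not background-corrected, the difference was -0.33 at 11 and -0.39 at 7 months. At 7 months it read 6.27, 6.59, 6.48 and 6.25 in BACHD-ΔN17 and 7.06, 7.65, 7.17 and 7.66 in wild-type striatum, a difference of -0.99 (SE 0.18, adjusted p = 0.000529). In cortex the wild-type mice spread widely, at 5.52 to 7.26, against 5.88 to 6.48 in BACHD-ΔN17 mice at 11 months, and the difference was -0.18 (SE 0.27, adjusted p = 0.701). The test of striatum against cortex did not pass for Shank3 at 7 months (-1.15, SE 0.35, adjusted p = 0.103) or 11 months (-0.80, SE 0.35, adjusted p = 0.195).

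**Figure D3:**
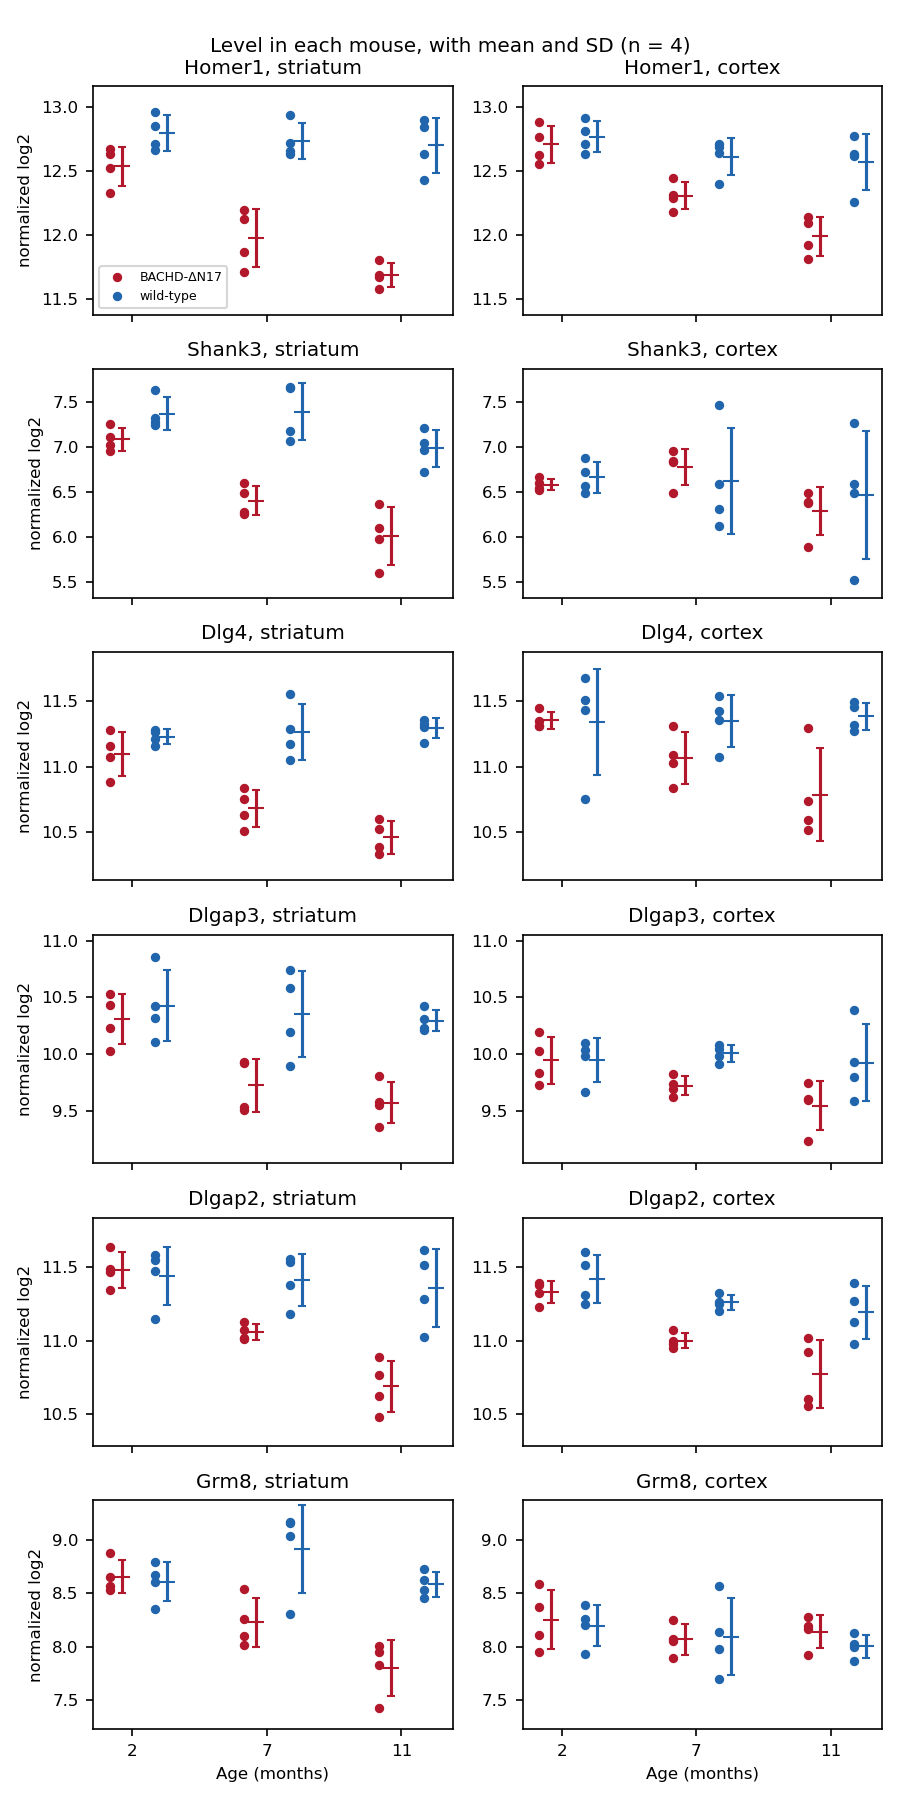
Normalized log2 level of Homer1, Shank3, Dlg4, Dlgap3, Dlgap2 and Grm8 in each mouse at 2, 7 and 11 months, BACHD-ΔN17 in red left of wild-type in blue, striatum left and cortex right, with mean and SD (n = 4). In striatum at 11 months no BACHD-ΔN17 value of these 6 genes reaches a wild-type value. The genes shown were picked from those called lower there. The share of all features separated in this way is not given, so the separation cannot be read as particular to the members.

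Homer1 and Shank3 had the lowest striatal differences at 11 months with the main normalization. Shank3 did not keep that rank on the authors' log2 values. The 250 bases before a start of each are shown. A different motif is marked in each, and the window with the most copies of that motif was the one shown. The Shank3 window lies inside the span of the gene given above. RefSeq promoter windows (GRCm38.p6) were matched for 21 of the 30 members, 34 windows in all, and Dlgap2, Dlgap5, Gria1, Gria3, Grik1, Grin2a, Grin2b, Grm4 and Shank2 had no entry. Capitals mark TGACG, the half-site of the cAMP response element, in Homer1 and GCGTGGGCG, the site of EGR factors, in Shank3, on either strand.
Homer1, chr13:93303507-93303756, plus strand: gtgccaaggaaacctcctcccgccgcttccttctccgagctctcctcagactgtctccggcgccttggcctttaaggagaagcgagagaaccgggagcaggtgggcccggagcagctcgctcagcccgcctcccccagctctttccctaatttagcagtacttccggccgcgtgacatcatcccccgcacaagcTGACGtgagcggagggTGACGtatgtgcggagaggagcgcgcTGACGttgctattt
Shank3, chr15:89499358-89499607, plus strand: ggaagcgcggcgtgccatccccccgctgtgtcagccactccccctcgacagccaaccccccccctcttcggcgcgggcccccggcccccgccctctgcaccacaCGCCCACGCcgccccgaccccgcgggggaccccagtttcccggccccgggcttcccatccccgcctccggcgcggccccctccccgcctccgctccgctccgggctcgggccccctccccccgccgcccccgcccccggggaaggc
The Homer1 window, picked for its copies, held 3 of TGACG. At least 1 copy was present in 17.8% of 32851 mouse windows of that length and in 4 of the 34 member windows. Of the 21 matched members, Dlg3, Dlg4, Grm8 and Homer1 had it. GCGTGGGCG was present in 0.536% of all windows and, among the members, in Shank3 alone. The 2 motifs share no overlap, and a match is a description of the letters and not of binding.

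Between 2 and 11 months of age limma called 0 members in wild-type striatum and 0 in wild-type cortex. There 0.134% of all features in striatum and 0.0181% in cortex were called, and 2 and 1 members had an unadjusted p under 0.05. The change of the genotype difference between these ages was called for 4 members in striatum (Dlgap2, Dlg4, Grm8 and Homer1, all negative), where 6.66% of all features were called. In cortex it was called for Homer1 alone, where 3.97% were called. The difference between regions in the genotype effect was called for Homer1 alone at 7 months, beside 1.91% of all features. At 11 months it was called for Dlg2, Grm8 and Homer1, all more negative in striatum, beside 5.98%. With the brightest probes, Homer1 was the single member called in all 4 of these tests, although no other Homer1 probe passed between regions. Its cortical call was lost without wild-type mouse 1, 2 or 3 or BACHD-ΔN17 mouse 1 or 2 of 2 months, or wild-type mouse 1, 2 or 4 or BACHD-ΔN17 mouse 1 or 4 of 11 months (0 members called). Its 7-month region call was lost without wild-type mouse 1 or BACHD-ΔN17 mouse 1, 3 or 4. The 11-month region count was 1 without wild-type mouse 1 or BACHD-ΔN17 mouse 1 or 2, and both region counts were 0 without the mice that have a dim array. The share of higher calls over all features moved under scale normalization to 20.0% (against 35.8%) for the striatal change with age, 48.8% (against 33.7%) for the cortical one and 22.2% (against 48.0%) for the 11-month region gap.

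Between the regions of wild-type mice 68.2% of the members were called, beside 55.2% of all features. The share of members lower in striatum (27.3%) was close to that of all features. Of 22 members, 9 were higher and 6 lower in striatum than in cortex (n = 12 mice, the sexes weighted equally), beside 28.5% of features higher and 26.7% lower. Dlgap1 stood farthest apart, with a mean level of 6.07 in striatum and 8.49 in cortex and a difference of -2.41 (SE 0.13, adjusted p = 2.13e-16). Grik1 followed with -1.52 (SE 0.09, adjusted p = 1.09e-15), and Gria4 with -0.80 (SE 0.16, adjusted p = 6.57e-05). Of the members higher in striatum, Gria1 differed by 0.75 (SE 0.05, adjusted p = 3.27e-13), Shank3 by 0.66 (adjusted p = 0.000211), Grm8 by 0.60 (adjusted p = 4.82e-07), Dlgap3 by 0.40 (adjusted p = 0.000105) and Dlg2 by 0.38 (adjusted p = 2.4e-08). Grm4 differed by 0.55 (adjusted p = 0.00492) but was detected on only 2 cortical arrays. Homer1 and Dlg4 did not pass.

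**Figure D4:**
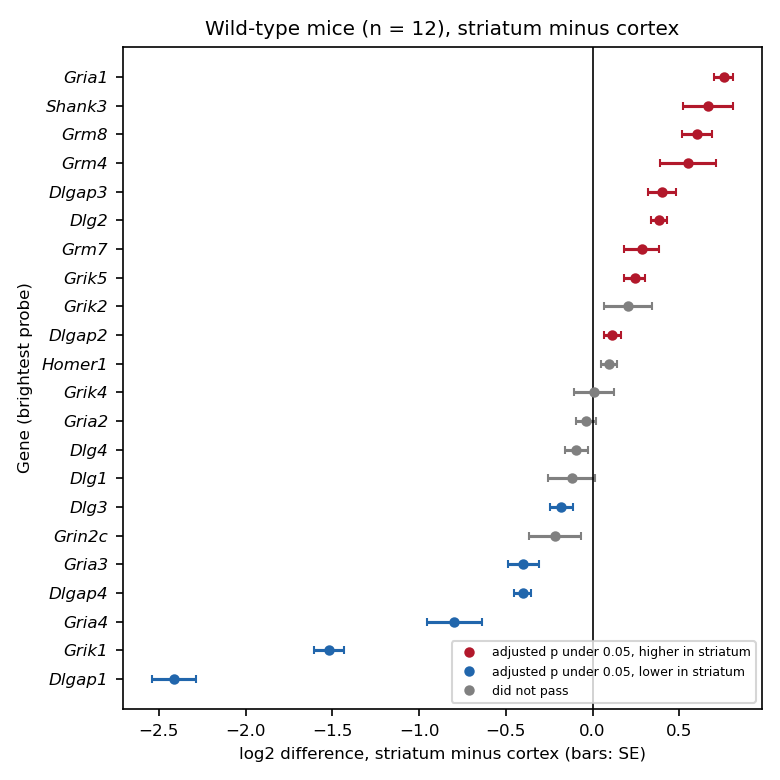
Log2 difference, striatum minus cortex, in wild-type mice (n = 12) for the 22 tested members, with bars of 1 SE. Red marks members higher and blue members lower in striatum at limma adjusted p under 0.05. Dlgap1 at -2.41 and Grik1 at -1.52 lie farthest from 0.

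Other genes of the excitatory synapse were counted from lists that hold none of the members. These lists were chosen with earlier results of these data known, so their counts are not independent evidence. Auxiliary subunits and extracellular partners of the receptors fell in 8 of 15 tested genes in BACHD-ΔN17 striatum at 11 months and rose in 0, with a list median of -0.41. Cacng4, an AMPA receptor auxiliary subunit, differed by -1.59 (adjusted p = 1.54e-08), and Nptx1 and Nptx2, pentraxins that cluster AMPA receptors, by -0.9997 and -1.002 (adjusted p = 0.00915 and 0.00496). Other proteins of the postsynaptic density fell in 17 of 27 genes and rose in 0, with a median of -0.42. Actn2, an actinin that links NMDA receptors to actin, differed by -1.64 (adjusted p = 9.57e-10), Arc, an activity-induced gene that promotes AMPA receptor removal, by -1.23 (adjusted p = 0.0024), and Sorbs2 by -0.77 (adjusted p = 0.0211). Receptor trafficking genes fell in 5 of 19, led by Akap9 (-0.77, adjusted p = 5.38e-07) and Porcn (-0.52, adjusted p = 9.95e-06), with a list median of -0.10.

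The auxiliary list fell in cortex at 11 months in 5 of 16 genes and rose in 0, and the postsynaptic density list fell in 10 of 27 and rose in 0. Nptx2 differed by -1.72 (adjusted p = 4.68e-06), Cacng3, another AMPA receptor auxiliary subunit, by -0.79 (adjusted p = 0.000264), and Olfm1 by -0.67 (adjusted p = 1.16e-05). Arc differed by -0.99 (adjusted p = 0.0294), Iqsec2 by -0.77 (adjusted p = 0.000247) and Rph3a by -0.67 (adjusted p = 3.19e-05). The trafficking list fell in 4 of 19 genes, among them Grasp (-0.78, adjusted p = 0.000649), and Akap9 alone rose (0.24, adjusted p = 0.0494). These counts stand beside 10.1% of features lower in striatum and 9.16% in cortex.

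**Figure D5:**
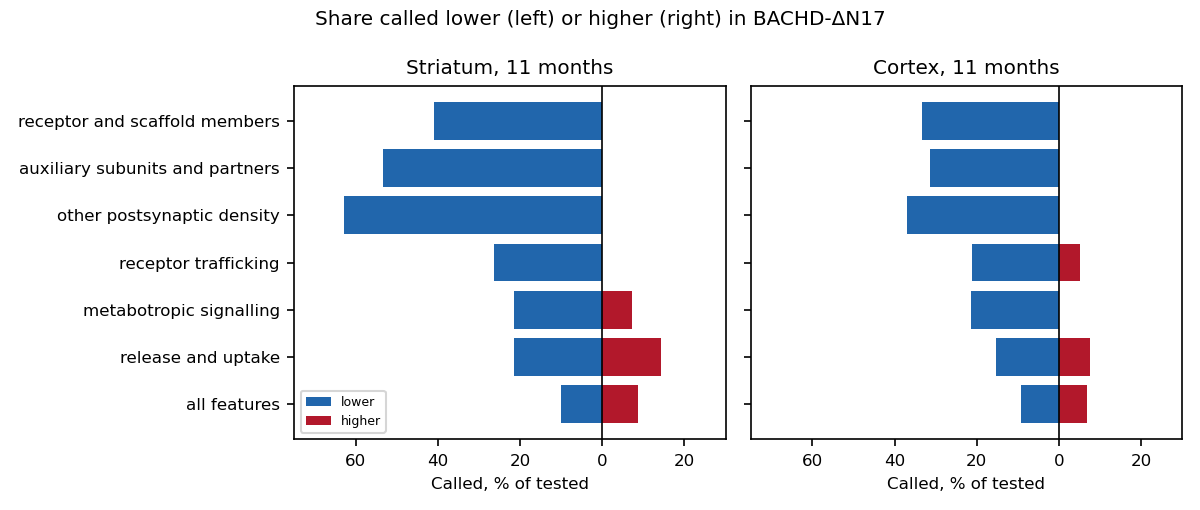
Percent of tested genes called lower (blue, left of 0) or higher (red, right of 0) in BACHD-ΔN17 at 11 months, in striatum (left) and cortex (right), for the members, the 5 other lists and all features. In striatum 17 of 27 other postsynaptic density genes, 8 of 15 auxiliary genes and 9 of 22 members were lower, beside 10.1% of all features. The members and lists were chosen with earlier results of these data known.

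Markers of cell types were counted in BACHD-ΔN17 striatum at 11 months beside 10.1% of all features lower and 8.73% higher. Of 18 markers of striatal projection neurons, 16 were lower and 0 higher in BACHD-ΔN17 striatum at 11 months, with a median difference of -0.72. Their summed level was 16.69 to 16.82 in BACHD-ΔN17 and 17.40 to 17.55 in wild-type striatum, and Adcy5 was at background on all 4 BACHD-ΔN17 arrays. At 7 months 12 were lower, beside 7.29% of all features. The summed level was then 16.89 to 17.05 in BACHD-ΔN17 and 17.43 to 17.46 in wild-type mice. At 2 months 0 were called, beside 0.00891% of all features. Of 11 general neuronal markers 2 were lower and 3 higher in striatum at 11 months, with sums of 16.40 to 16.48 in BACHD-ΔN17 and 16.31 to 16.41 in wild-type mice. Snap25 and Nefl were at background in both groups.

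Interneuron markers were lower in 5 of 12 genes in striatum at 11 months (sums of 15.22 to 15.61 in BACHD-ΔN17 and 15.54 to 15.84 in wild-type mice). Astrocyte markers were higher there in 4 of 12 genes and lower in 1, with sums of 16.24 to 16.34 in BACHD-ΔN17 and 16.04 to 16.16 in wild-type mice. Microglial markers were higher in 7 of 12 and lower in 4, with sums of 13.32 to 13.66 in BACHD-ΔN17 and 13.26 to 13.32 in wild-type mice. Of 6 markers of oligodendrocyte precursors 1 was higher and 0 lower, and their sums did not overlap, at 14.02 to 14.04 in BACHD-ΔN17 and 13.36 to 13.81 in wild-type mice. Cortical excitatory markers, of which Neurod1, Neurod6 and Emx2 were at background in both groups, were lower in striatum in 3 of 10, with sums of 14.16 to 14.39 in BACHD-ΔN17 and 14.55 to 14.73 in wild-type mice. Oligodendrocyte markers were lower in 1 of 10 (sums of 16.24 to 16.47 in BACHD-ΔN17 and 16.24 to 16.43 in wild-type mice), and endothelial markers were higher in 2 of 9 and lower in 1 (sums of 13.69 to 13.83 in BACHD-ΔN17 and 13.48 to 13.72 in wild-type mice).

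In cortex at 11 months 9.16% of all features were lower and 6.97% higher. Markers of cortical excitatory neurons were lower there in 5 of 11 genes, with sums of 15.37 to 15.51 in BACHD-ΔN17 and 15.70 to 15.85 in wild-type mice. Neurod6 and Emx2 were at background in both. Interneuron markers were lower in 5 of 10 there, with sums of 15.37 to 15.62 in BACHD-ΔN17 and 15.80 to 16.03 in wild-type mice. Projection neuron markers, with Gpr6, Foxp2, Adcy5 and Gnal at background in both groups, were lower in cortex in 6 of 14, with sums of 14.56 to 14.68 in BACHD-ΔN17 and 15.21 to 15.25 in wild-type mice. General neuronal markers were lower there in 1 of 11, with sums of 16.75 to 16.82 in BACHD-ΔN17 and 16.83 to 16.94 in wild-type mice. Astrocyte markers were lower in cortex in 2 of 12 and higher in 1, with sums of 15.88 to 16.16 in BACHD-ΔN17 and 16.09 to 16.25 in wild-type mice, and microglial markers were lower in 2 of 12, with sums of 12.60 to 12.82 in BACHD-ΔN17 and 12.80 to 13.18 in wild-type mice. Endothelial markers were higher in cortex in 2 of 9, with sums of 13.75 to 13.77 in BACHD-ΔN17 and 13.56 to 13.63 in wild-type mice. The sums of oligodendrocyte and precursor markers overlapped between genotypes there, with 1 of 10 and 1 of 6 lower. The part of these cell markers in the members' differences was not tested.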

How the data were processed

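Both deposited tables were used. Per the labels' protocols, RNA was purified on columns with DNase digestion, amplified and biotin-labelled. The authors deposited summarised bead intensity per probe on a linear scale, not normalized, beside a detection p-value from negative control beads. The scanner software is not given in the sources used here. The authors' second table, on a log2 scale, equals quantile-normalized log2 intensities without background correction to within 4.9988e-09, and was used as an alternative. Its scale, centring and direction are known from that comparison alone, and each column's median was 7.94.

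Intensities were background-corrected and quantile-normalized with neqc (offset 16) of limma 3.58.1 in R 4.3.3. The probe with the highest mean stood for each gene (18312 features, including 1719 unnamed probes). Testing required detection (p under 0.05) on 4 or more arrays of the region: 11225 features in striatum, 11047 in cortex and 11573 for comparisons between regions. Each array detected 12477 to 14378 probes, and the number of arrays limits the precision.

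Per region, limma was fitted to 24 arrays with the 6 group means and sex (coded so that both sexes weigh equally), and a variance trend. Comparisons between regions used striatum minus cortex within each of the 24 mice. Benjamini-Hochberg adjustment ran over all features of a comparison, and every adjusted p given is limma's. Marker sums are log2 of summed normalized intensities. Mice are numbered 1 to 4 within genotype and age. The fit was tested on simulated data. Replicates are separate mice per the labels. The replicate number in the labels repeats within groups, so it does not pair mice.

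Genes named are every member, the largest called changes of each list (at most 3 each way) at 11 months, and other probes of members. The members and lists were chosen with earlier results of these data known. Alternatives covered normalization, the detection filter, internal sample numbers, sex, array weights, the variance trend, a replicate block, other probes and leaving out each mouse.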

Additional observations from a re-analysis of the deposited data

Results flagged for a closer look

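In 208 groups of 4 mice, 9 held a member's value far from the other 3 by Dixon's criterion, and chance flags about 1 group in 20. In BACHD-ΔN17 mice these were Dlg3 at 11.6 in the striatum of mouse 3 and at 12.4 in the cortex of mouse 1 at 11 months, Gria1 at 11.7 in the striatum of mouse 1 at 2 months, and Grik5 at 9.73 in the cortex of mouse 3 at 11 months. In wild-type mice they were Dlgap4 at 12.1 and Grik5 at 9.75 in the cortex of mouse 1 at 11 months, Gria1 at 11.3 in the cortex of mouse 1 and Grm7 at 8.60 in the cortex of mouse 3 at 2 months, and Grm8 at 8.31 in the striatum of mouse 3 at 7 months.

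The genotype difference in striatum changed between 2 and 11 months, by the limma test of that change, for Dlgap2 (-0.71), Dlg4 (-0.70), Grm8 (-0.83) and Homer1 (-0.75). In cortex it changed for Homer1 (-0.52). With the brightest probes, the genotype difference was more negative in striatum than in cortex for Homer1 at 7 months (-0.46). At 11 months it was so for Dlg2 (-0.37), Grm8 (-0.92) and Homer1 (-0.44). The other Homer1 probes did not pass this test.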

How the results depend on the processing

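Of 513 recomputed values of members called lower between genotypes, 410 kept direction and call, 102 lost the call and 1 turned, the dimmest Dlgap2 probe in striatum at 7 months (0.0052). The main counts of members called were 8 and 9 in striatum at 7 and 11 months, 7 in cortex at 11 months, 4 and 1 for the change with age in striatum and cortex, 15 between regions, and 1 and 3 for the genotype difference between regions at 7 and 11 months. Scale normalization gave 5 in striatum at 7 months and 0 in cortex at 11 months. It moved the median of all features in striatum at 11 months to -0.13 and the share of higher calls to 17.2%, against 46.2%. In cortex at 11 months that share was 35.8%, against 43.2%. It called 581 features in striatum at 7 months, against 1411. Striatum at 7 months gave 4 with eights of internal numbers as a factor or numbers 1 to 32 alone and 5 with the 2 sets as a factor. Cortex at 11 months gave 3 with numbers 1 to 32 alone, 1 without numbers 1 to 8 and 2 with numbers 33 to 48 alone, a setting chosen after seeing the data. Array weights gave 1 in cortex at 7 months. The change in striatum gave 2 with eights as a factor. The change in cortex gave 2 with array weights and 0 with scale normalization, no detection filter, no variance trend, numbers 1 to 32 alone or without numbers 1 to 8. The region gap at 7 months gave 2 with array weights or with 48 arrays, eights and mouse as blocks, and 0 with scale normalization, no filter or no trend. At 11 months it gave 1 with no trend and 1 with the 48 arrays. Without mice that have an array among numbers 1 to 8, chosen after seeing the data, both gaps gave 0. The cause of these shifts was not tested. The share of all features called is not given beside most of these counts, so the shifts cannot be read as particular to the members. With the replicate block, which pairs no mice here, the counts were 6 in striatum and 2 in cortex at 11 months, 1 and 0 for the changes with age, 14 between regions and 0 for both region gaps. Leaving out each mouse gave 5 to 8 in striatum at 7 months, 8 to 10 at 11 months, 5 to 8 in cortex at 11 months, 3 to 5 and 0 to 1 for the changes with age, 13 to 15 between regions, and 0 to 2 and 1 to 4 for the region gaps. Dlg4, Dlgap3 and Shank3 in striatum at 7 and 11 months, and Dlg2 there at 11 months, kept direction and call under every alternative run for them. Shank3 was smallest on the authors' log2 values (-0.39 at 7 and -0.33 at 11 months). Each of these genes has 1 probe, so the alternative of other probes could not be run for them. Homer1 in striatum kept the call in 22 of 23 alternatives at both ages. Its 1 loss was with the fourth probe, detected on 2 of 24 striatal arrays. Members near the detection floor are limited by signal over background.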

Other observations

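Genes of metabotropic signalling and of glutamate release and uptake were counted in BACHD-ΔN17 striatum at 11 months beside 10.1% of all features lower and 8.73% higher. Of 14 signalling genes, 3 were lower and 1 higher. Prkca, a protein kinase C, differed by -0.68 (adjusted p = 0.0114), Agap2 by -0.57 (adjusted p = 0.00031) and Gnao1, a G protein subunit, by -0.34 (adjusted p = 0.0027), while Gnai2 differed by 0.28 (adjusted p = 0.0347). Of 14 release and uptake genes, 3 were lower and 2 higher. Slc17a8, a vesicular glutamate transporter found in cholinergic interneurons of striatum, differed by -1.14 (adjusted p = 3.33e-06), and the uptake transporters Slc1a1 and Slc1a2 by -0.36 each (adjusted p = 0.00803 and 0.0114). Got1 (0.52, adjusted p = 0.0119) and Slc38a2 (0.41, adjusted p = 0.00154) were higher.

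In cortex at 11 months, where 9.16% of all features were lower and 6.97% higher, 3 of 14 signalling genes were lower, Prkca (-0.85, adjusted p = 0.00493), Dgkz (-0.77, adjusted p = 2.94e-06) and Agap2 (-0.39, adjusted p = 0.0137). Of 13 release and uptake genes, Slc1a2, the main astrocytic glutamate transporter, differed by -0.74 (adjusted p = 4.85e-06) and Slc17a7, the vesicular transporter of cortical terminals, by -0.45 (adjusted p = 0.00557), while Slc38a2 differed by 0.60 (adjusted p = 0.00065).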
